A study of Mus musculus with 21 samples.

Results

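The cytosolic ribosomal protein genes were taken as the protein-coding rows of the deposited count table whose symbol is Rpl or Rps with a number and at most one closing letter, with or without digits after it, or is Rplp0, Rplp1, Rplp2 or Rpsa. This rule found 77 of the 23713 genes in the table, 31 of the small subunit and 46 of the large subunit. All 77 passed the filter on low counts in every comparison. RNA was sequenced in bulk from tail keratinocytes, the cells of the epidermis, of 3 mouse models of basal cell carcinoma (BCC) and of control mice without tumour (Con), with 3 Con and 4 BCC libraries per model. SmoM2 carries an activated form of Smoothened, the receptor that turns on Hedgehog signalling, and was sampled 29 days after tumour induction. Gnas-eKO is named for a knockout of Gnas, the stimulatory G protein subunit that raises cAMP, and was sampled at 42 days. PKI mice are named for the peptide inhibitor of the cAMP-dependent kinase (protein kinase A) and were sampled at 57 days; what construct they carry is not described. Each model was its own batch (A for SmoM2, B for Gnas-eKO, C for PKI), and the effects of batch, sampling day and model cannot be told apart. The promoters, the strains, the sex and the age of the mice are not given in the sources used here. Animal names in the table's header begin with TJ for SmoM2 Con and for all Gnas-eKO libraries, with BF for SmoM2 BCC and with ZQ for all PKI libraries. The sources used here do not say what the prefixes mean, and the tumour and the prefix cannot be told apart in SmoM2.

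A cytosolic ribosome is built from ribosomal RNA and one copy of most ribosomal proteins, which are made in matched amounts. Their mRNAs begin with a terminal oligopyrimidine (TOP) tract, through which mTORC1 signalling sets how fast they are translated, and Myc proteins raise their transcription. Free Rpl5 and Rpl11, bound to the 5S RNA, hold back Mdm2 and so stabilise p53 when ribosome assembly fails. The genes are short and strongly transcribed, and many processed pseudogenes in the genome are nearly exact copies of their mRNAs, which makes reads from them hard to place.

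The copies bear on each value given for these genes, so they are shown first. By sequence, 73 of the 77 members had a copy among the other rows of the table, defined as at least 90% identity over at least 80% of the coding sequence in GENCODE M21 (GRCm38), or by a pseudogene name that carries the member's symbol. There were 741 such copies in all, of which 724 were found by sequence. Averaged over the libraries, the member's own row held a median of 26.9% of the counts of the member and its copies together; 17 members held under 10% and 10 held over 90%. Rplp2, Rpl8 and Rps3 were among the members with no copy by this definition. The following stretches of coding sequence, 60 bases each on the strand of the transcript, show members whose level divided between libraries, each beside a copy; bases that differ within a pair are in capitals.
Rpsa, chr9:120129208-120129267, plus strand: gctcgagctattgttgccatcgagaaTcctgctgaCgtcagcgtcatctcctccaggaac
Rpsa-ps10, chr3:150073300-150073359, minus strand: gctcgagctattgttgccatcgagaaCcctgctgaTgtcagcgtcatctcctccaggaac
Rpl34, chr3:130729055-130729114, minus strand: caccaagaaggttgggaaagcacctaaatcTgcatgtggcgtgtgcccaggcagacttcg
Rpl34-ps1, chr6:71124711-71124770, plus strand: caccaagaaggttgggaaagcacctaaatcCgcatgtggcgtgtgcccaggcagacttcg
Rpl3, chr15:80082500-80082559, minus strand: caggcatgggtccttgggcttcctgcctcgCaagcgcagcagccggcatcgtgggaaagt
Rpl3-ps1, chrX:13202598-13202657, plus strand: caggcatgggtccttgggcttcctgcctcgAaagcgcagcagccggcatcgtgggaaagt
Rps18, chr17:33952221-33952280, minus strand: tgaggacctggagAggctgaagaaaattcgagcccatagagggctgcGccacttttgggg
Rps18-ps6, chr13:97760206-97760265, minus strand: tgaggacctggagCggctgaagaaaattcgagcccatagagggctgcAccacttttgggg
Rpl29, chr9:106430312-106430371, plus strand: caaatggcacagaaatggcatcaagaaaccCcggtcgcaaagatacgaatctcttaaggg
Gm8210, chr1:43189197-43189256, plus strand: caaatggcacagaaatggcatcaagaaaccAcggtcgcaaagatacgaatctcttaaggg

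Over the whole coding sequence, Rpsa and Rpsa-ps10 differed at 6 of 885 bases, Rps18 and Rps18-ps6 at 4 of 456, and Rpl29 and Gm8210 at 3 of 480. Rpl3 and Rpl3-ps1 differed at 2 of 1209 bases, at C57A and T786C, with 728 identical bases between or beside them, where positions count from the first base of the start codon and the member's base stands first. For Rpl34 and Rpl34-ps1 the 2 differences in 351 bases were T132C and C318G. Rpl26 and Gm15772 differed at 2 of 435 bases, Rpl21 and Gm10240 at 2 of 480, and Rpl35a and Gm10243 at 1 of 330, which was G156A. Reads that fall between these positions match the member and the copy alike in the reference genome. Of the members' deposited values, 97.2% were not whole numbers, against 33.1% over all genes. The latter include rows with sums as low as 10 over the libraries, and genes of like counts were not compared.

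Library totals lay between 16645858 and 22251132 counts. In Gnas-eKO BCC, Gnas itself was at 51.2 to 115 CPM (counts divided by the TMM-scaled library size) and at 172 to 178 in Gnas-eKO Con, so the targeted gene was lower in each library labelled BCC. Smo was at 283 to 312 CPM in SmoM2 BCC and 93.7 to 111 in SmoM2 Con, and Pkia, the mouse gene of a PKI peptide, at 2.105 to 3.74 CPM in PKI BCC and 3.73 to 4.99 in PKI Con. Whether the PKI construct would be counted in that or any row is not given in the sources used here. The keratinocyte markers Krt5, Krt14, Krt1, Krt10, Trp63 and Dsp were present in every group. Their summed level was 36710 to 51520 CPM in SmoM2 BCC against 55180 to 71760 in Con, with 4 of the 6 called lower and 1 higher. It was 27860 to 48790 CPM in Gnas-eKO BCC against 55830 to 66900 in Con, none called, and 45080 to 74340 in PKI BCC against 50040 to 67860 in Con, 2 called lower and 1 higher. The summed level of 10 leukocyte markers was higher in BCC of each model, at 480 to 1080 CPM against 99.4 to 173 in SmoM2 Con, 169 to 2092 against 131 to 166 in Gnas-eKO, and 1174 to 4039 against 46.5 to 127 in PKI, with 2, 0 and 9 of them called higher and 1 lower, in SmoM2. The summed level of 6 fibroblast markers was also higher in BCC of each model, at 387 to 525 CPM against 17.2 to 39.8 in SmoM2, 94.3 to 579 against 15.9 to 27.4 in Gnas-eKO, and 84.4 to 145 against 15.8 to 43.5 in PKI, with 2, 1 and 3 called higher. The 5 melanocyte markers summed to 72.2 to 117 CPM in PKI BCC against 153 to 201 in Con, with 4 called lower, and to 109 to 159 against 115 to 204 in SmoM2, with 2 called lower; none was called in Gnas-eKO. The 3 erythroid markers summed to 9.51 to 66.0 CPM in SmoM2 BCC against 1.33 to 13.9 in Con, to 13.3 to 253 against 17.8 to 70.6 in Gnas-eKO, and to 0.413 to 18.8 against 1.115 to 5.89 in PKI, with none called. The part of these cells in the levels below was not tested, and in bulk RNA a change in the number of cells of a type and a change of RNA per cell cannot be told apart. The marker counts above stand beside 16.2% of all genes called higher and 13.5% lower in SmoM2, and 18.7% and 15.8% in PKI. In Gnas-eKO 1.63% of all genes were called in either direction.

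The member rows together held 2.30% to 2.40% of all counts in SmoM2 Con and 2.28% to 2.48% in SmoM2 BCC. In PKI the shares were 2.43% to 2.52% in Con and 2.38% to 2.63% in BCC. The 3 Gnas-eKO Con libraries lay close together, from 2.49% to 2.53%, while the 4 Gnas-eKO BCC libraries held 1.95%, 2.29%, 3.51% and 2.25%. Replicate 3 of Gnas-eKO BCC thus stood above the other 20 libraries, none of which passed 2.63%, and replicate 1 stood below them. With the copies added, the shares were 5.37% to 6.98% in those 20 libraries and 9.83% in replicate 3. That library also had 8.53% of its counts on rows of the mitochondrial genome, against 3.00% to 3.48% in the other 3 of its group. The BCC effect in Gnas-eKO is given with and without it, and so are the differences of the member rows from the other models. For the sums, those differences are given only with it.

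**Figure D1:**
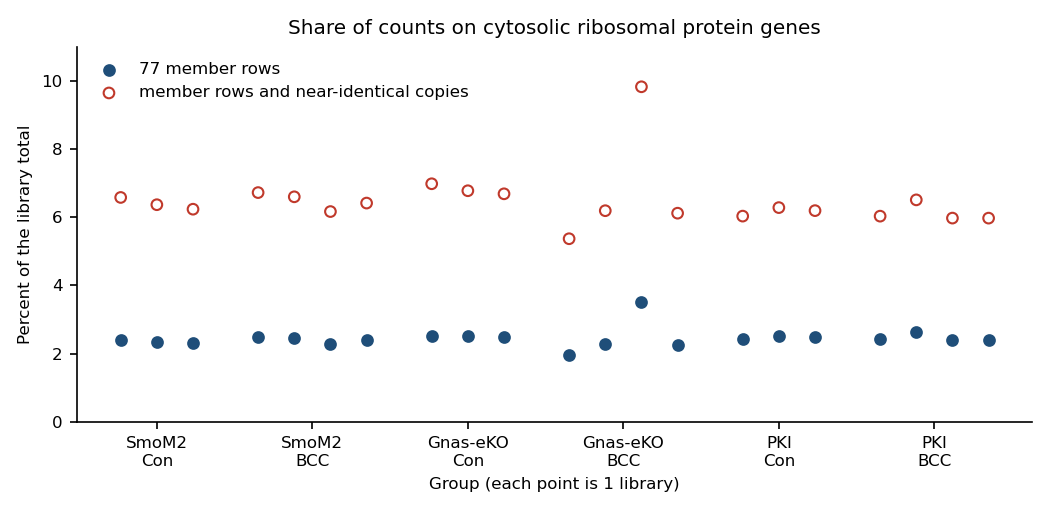
Percent of each library's counts (vertical axis) on the 77 member rows (filled points) and on the members and their near-identical copies (open points), for the 21 libraries in 6 groups along the horizontal axis. Gnas-eKO BCC replicate 3, at 3.51% and 9.83%, stands above the other 20 libraries.

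The control mice of the 3 batches were compared to see which members differ without any tumour. Of the 77 members, 7 differed among the 9 Con libraries by edgeR's quasi-likelihood F test (9.09% of members; background 1.64% of 16298 genes): Rps2, Rps18, Rpl3, Rps28, Rpl35a, Rpl30 and Rpsa. Rps2, a small subunit protein near the mRNA entry channel, was at 10.0 to 12.4 CPM in SmoM2 Con, 10.6 to 14.1 in Gnas-eKO Con and 788 to 854 in PKI Con. This was 6.19 ± 0.13 higher on the log2 scale in PKI Con than in SmoM2 Con (SE, n = 3 and 3, adjusted p = 2.741e-09; 1.79% of all genes were called in this pair). Rps18, at the head of the small subunit, was at 35.9 to 40.7 CPM in SmoM2 Con, 33.0 to 42.1 in Gnas-eKO Con and 359 to 395 in PKI Con, a log2 difference of 3.32 ± 0.10 between PKI and SmoM2 (adjusted p = 4.773e-08). Rpl3, which lies near the peptidyl transferase centre, was at 39.9 to 48.1, 36.2 to 37.7 and 282 to 306 CPM in the same order, a difference of 2.74 ± 0.08 (adjusted p = 4.773e-08). Rps28 (1.63 ± 0.09, adjusted p = 4.286e-06), Rpsa (1.57 ± 0.24, adjusted p = 0.01607) and Rpl35a (1.43 ± 0.09, adjusted p = 1.439e-05) were also higher in PKI Con than in SmoM2 Con, and Rpl30 was lower, by 0.99 ± 0.16 (adjusted p = 0.01607). PKI Con and Gnas-eKO Con differed in 6 members, the same ones without Rpsa (background 1.69%). In that pair 31 members had an unadjusted p under 0.05 (2255 of 16298 genes). Between SmoM2 Con and Gnas-eKO Con, which share the prefix TJ, no member was called (1 of 16298 genes was, 0.00614%), and 4 had an unadjusted p under 0.05 (background 4.53%).

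With each member summed with its copies, none of the 77 differed among the Con libraries (background 1.44%), and the estimates between PKI Con and SmoM2 Con lay between -0.27 and 0.24 on the log2 scale (1.62% of genes called in that pair, and 0.00633% between Gnas-eKO Con and SmoM2 Con, with no sum called in either). Rps2 with its copies was at 1545 to 1613 CPM in SmoM2 Con, 1620 to 1752 in Gnas-eKO Con and 1453 to 1573 in PKI Con. The copy Rps2-ps10 went the other way, at 1478 to 1549 CPM in SmoM2 Con and 534 to 574 in PKI Con, while the copy Gm45855 went along with Rps2, from 6.54 to 6.71 CPM to 49.0 to 54.1. Within PKI, Rps2-ps10 and Rps2 were both higher in BCC than in Con, at 602 to 737 and 877 to 1043 CPM. The sums were not all alike, though: 72 of the 77 were estimated lower in PKI Con than in Gnas-eKO Con, with a median of -0.15 on the log2 scale, and Rpl12 was called in that pair (-0.31 ± 0.06, adjusted p = 0.04166, background 1.47%). The Rpl12 row held 2.4% of the counts of that sum. Between these groups 43 of the sums had an unadjusted p under 0.05 (2171 of 15799 genes). Leaving out 1 Con library at a time, the calls of Rpl30 and Rpsa among batches were lost in 6 of 9 fits each, and those of the other 5 members in none. Several of these members overlap a gene on the other strand (Snhg9 at Rps2, Vps52 at Rps18, Syngr1 at Rpl3, Kank3 at Rps28, Gm17106 at Rpl35a), and whether counting used the strand is not given in the sources used here, so reads of those partners cannot be told apart.

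**Figure D2:**
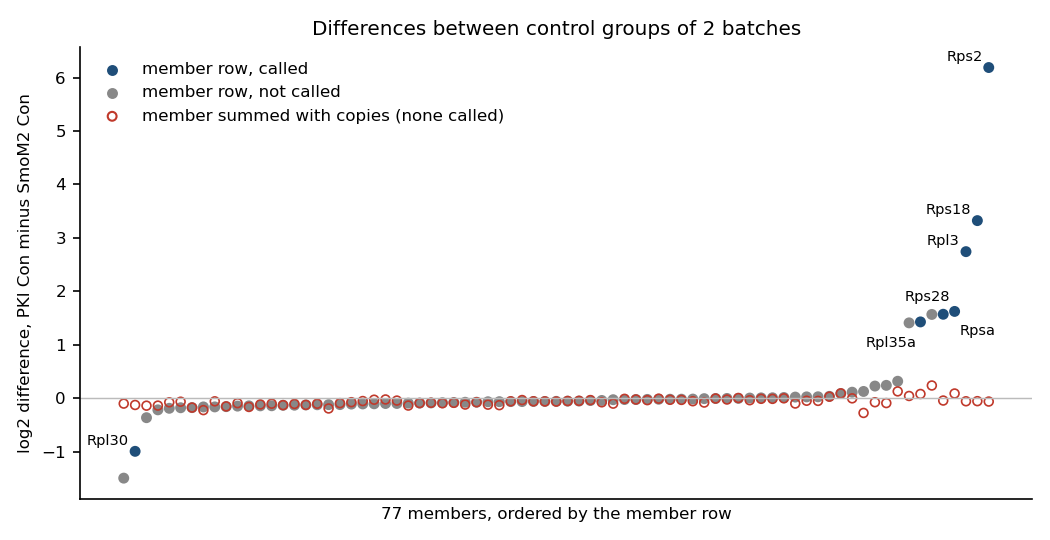
log2 difference between PKI Con and SmoM2 Con (3 libraries each) for each of the 77 members, ordered along the horizontal axis, for the member row (filled points, dark where called) and for the member summed with its copies (open points). The 7 called member rows reach from -0.99 (Rpl30) to 6.19 (Rps2), while the sums stay between -0.27 and 0.24.

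Taking BCC and Con libraries together, 5 members had all 7 libraries of batch C apart from the other 14 (0.918% of 12741 genes with a mean CPM of at least 3 did so). Rps2, Rpl3, Rps18 and Rps28 lay above and Rpl30 below. No member had all libraries of batch A or of batch B apart from the rest (background 0 and 0.0157%). By prefix, 2 members had the 10 TJ libraries apart from the other 11 (background 0.29%): Rpsa below and Rpl34 above. The 4 SmoM2 BCC libraries, the only ones with the prefix BF, lay apart from the other 17 for 1 member, Rpl11, and by a gap of 0.09 on the log2 CPM scale (background 2.59%). After summing with copies, none of these splits held for any member. Among the 9 Con libraries alone, however, sums did divide by model. The 3 Gnas-eKO Con libraries lay apart from the other 6 for 16 members as rows and 30 as sums (background 2.86% and 2.81%), and the 3 PKI Con libraries for 21 and 32 (background 10.3% and 10.1%). The 3 SmoM2 Con libraries did so for 3 rows and no sum (background 2.88% and 2.85%).

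Leaving out Gnas-eKO BCC replicate 3, 10 members ranged over 3-fold between the lowest and highest library: Rps2, Rpl29, Rpl34, Rpl21, Rpl26, Rps18, Rpl3, Rps28, Rpsa and Rpl35a, picked out after their values were seen. None of the 77 did so after summing, where the widest was Rpl29 at 2.12-fold and the median member 1.46-fold. Some of the 10, such as Rpl29, Rpl26, Rpl21 and Rpl35a, took steps between libraries of one group, while Rps2 and Rpl3 divided by batch. Rpl29, a small basic protein of the large subunit, was at 6.98, 5.51 and 201 CPM in SmoM2 Con, at 5.31 to 6.55 in SmoM2 BCC, at 5.98, 4.86 and 221 in Gnas-eKO Con and at 5.49, 206, 7.17 and 182 in Gnas-eKO BCC. In PKI the same gene was at 192 to 228 CPM in Con and 200 to 242 in BCC. Its copy Gm8210 was at 25.6 to 57.4 CPM in the 11 libraries with high Rpl29 and at 132 to 205 in the 10 with low Rpl29; a second copy, Gm6344, was at 72.3 to 101 CPM in the former and at most 0.723 in the latter.

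Rpsa, the laminin receptor and small subunit protein, took 3 levels, leaving out Gnas-eKO BCC replicate 3, which lay between the lower pair of them. Its level was 242 to 247 CPM in SmoM2 controls, 702 to 784 in SmoM2 tumours, and 256, 254 and 490 in Gnas-eKO Con. Gnas-eKO BCC libraries had 197, 455, 343 and 437 CPM. The PKI controls had 707 to 756 CPM and the PKI tumours 656 to 750. Rpsa lies at chr9:120127689-120132369 and Rpl29 at chr9:106429454-106431568 (GRCm38), and their levels did not run together in all libraries: the 4 SmoM2 tumours had high Rpsa and low Rpl29, and SmoM2 Con replicate 3 low Rpsa and high Rpl29. Rpsa-ps10 ran against Rpsa, from 1415 to 1484 CPM in SmoM2 Con to 688 to 782 in SmoM2 BCC, with a correlation over the 21 libraries of -0.86; Rpsa-ps2 ran along with it (0.99). These correlations are descriptions; how reads that match both rows were counted is not given in the sources used here. Of the 5 members that set batch C apart, Rps2, Rps18 and Rps28 lie on chromosome 17, at 24718116-24721929, 33951999-33956001 and 33819027-33824562, and Rpl3 and Rpl30 on chromosome 15, at 80077791-80091868 and 34440505-34443640. Within PKI BCC, replicate 3 stood lower for Rps18 and Rps28, at 173 CPM for Rps18 against 340 to 383 in the other 3, and at 36.0 CPM for Rps28 against 56.0 to 65.1, while Rps2 was at 877 there.

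Rpl34 was at 122 to 126 CPM in SmoM2 Con and 10.5 to 15.5 in SmoM2 BCC. It was at 124 to 128 in Gnas-eKO Con and at 57.3, 62.5 and 10.9 in PKI Con. In PKI BCC it was at 62.7 in replicate 1 and at 11.4 to 13.9 in the other 3. With copies, Rpl34 was at 246 to 249 CPM in SmoM2 Con, and 214 to 224 in SmoM2 BCC; the PKI controls had 218 to 239 and the PKI tumours 211 to 259. Rpl26 and Rpl21 each took 3 levels. Leaving out Gnas-eKO BCC replicate 3, Rpl26 was at 19.7 to 22.2, 115 to 142 or 224 to 276 CPM. In SmoM2 Con, Rpl26 was at 126, 136 and 20.4 CPM and Rpl21 at 274, 147 and 147; in SmoM2 BCC, Rpl26 was at 20.1, 124, 22.2 and 19.7 and Rpl21 at 17.0, 19.4, 116 and 129. Gm15772 ran against Rpl26 (correlation over the 21 libraries -0.78) and Gm10240 against Rpl21 (-0.82). The correlation was weaker for Rpl34 with Rpl34-ps1 (-0.29), both of which were high in Gnas-eKO BCC replicate 3 at 283 and 258 CPM, and for Rpl35a with Gm10243 (-0.26). Rpl35a was at 25.9 to 29.6 CPM in SmoM2 Con and at 74.3 to 78.2 in SmoM2 BCC except for replicate 3, at 27.8. In PKI it was at 71.4 to 77.4 in Con and at 68.3 to 81.2 in BCC except for replicate 4, at 25.6. Of its copies, 4 hold one and the same set of values in all libraries.

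**Figure D3:**
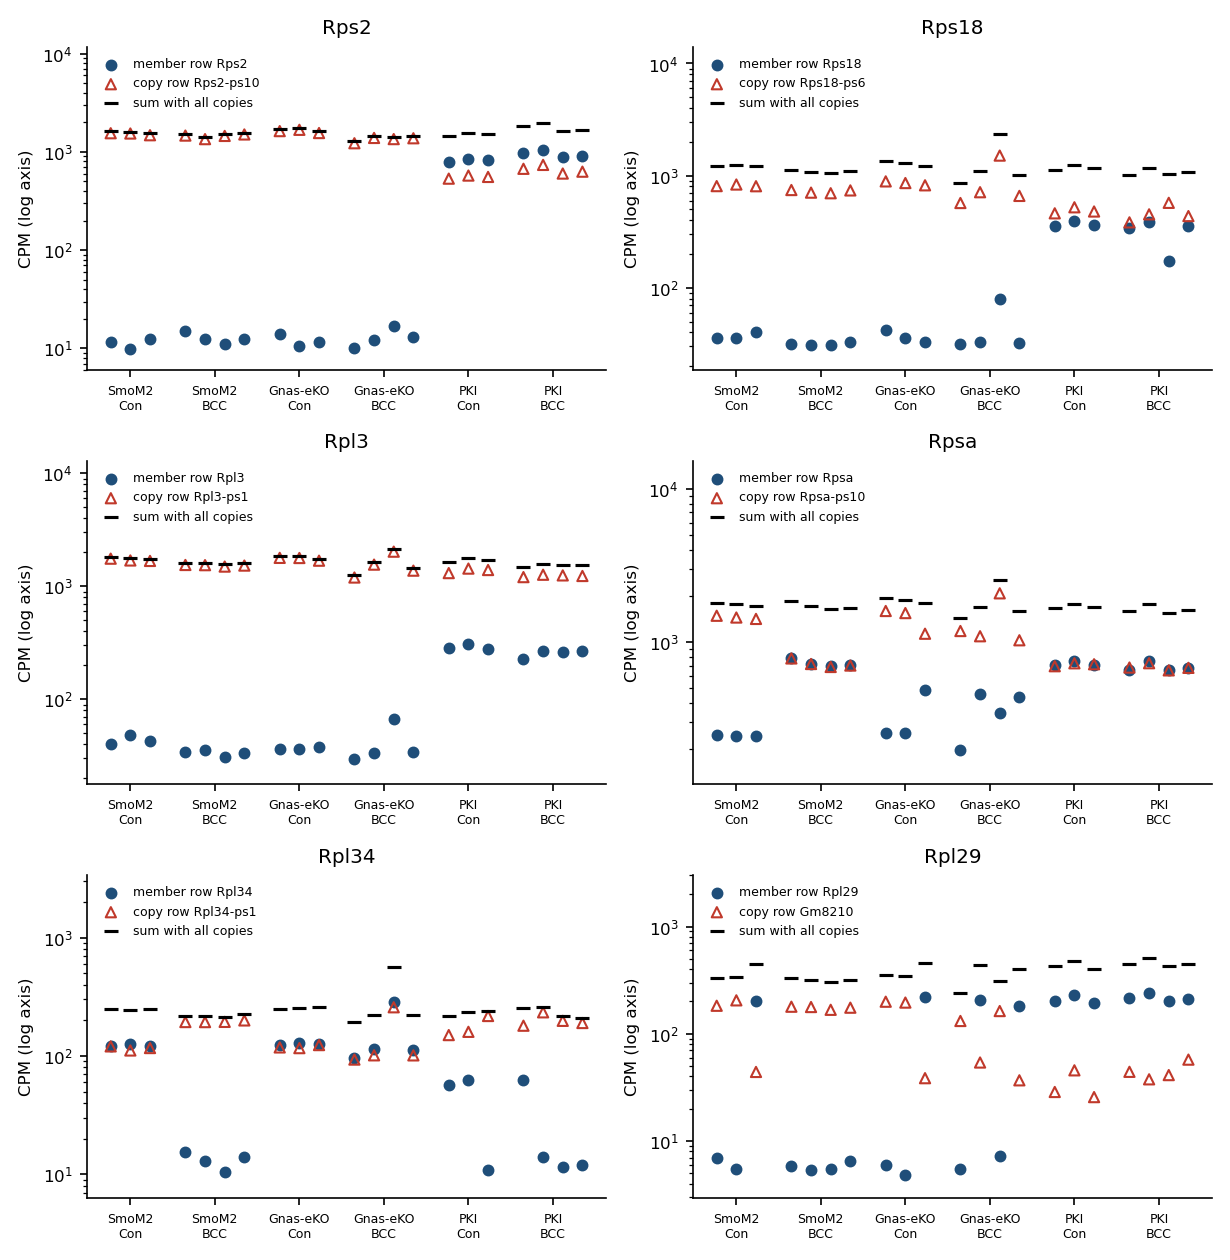
CPM on a log axis in the 21 libraries (horizontal axis, by group) for 6 members (filled points), one copy of each (triangles) and the sum of the member with all its copies (bars). Between batches A and B and batch C, Rps2 goes from 10.0 to 17.0 CPM to 788 to 1043 and Rps2-ps10 the other way, while their sum differs far less; for Rpl34 the opposite steps are not seen in Gnas-eKO BCC replicate 3, where both rows are high.

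Batch A set 4 SmoM2 tumour libraries against 3 controls. By edgeR, 11 of the 77 members were called (14.3%; background 29.7% of 16370 genes), 3 higher in BCC (background 16.2%) and 8 lower (background 13.5%). The changes of most members were small: 70 of the 77 lay within 0.5 on the log2 scale, 62 estimates were below 0, and the median was -0.09, against 0.00 over all genes tested. Under scaling by library totals alone, 3860 genes were called higher and 1319 lower, in place of 2646 and 2214. The median of all genes moved to 0.13 and that of the members to 0.04, so the direction of the members' median flips while its distance to all genes stays at about the same value. Median changes were -0.11 in the small subunit and -0.09 in the large subunit.

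Of the 3 called higher, Rpsa rose by 1.59 ± 0.07 (log2, SE, adjusted p = 4.058e-07), Rpl35a by 1.24 ± 0.37 (adjusted p = 0.04689) and Rpl5 by 0.37 ± 0.08 (adjusted p = 0.006076). Rpl5, of the 5S particle, was at 52.0 to 55.2 CPM in Con and 61.9 to 74.5 in BCC, so the groups did not overlap; its row held 3.3% of the counts of Rpl5 and its copies. None of the 3 was called after summing with copies: Rpsa was then at -0.03 ± 0.06, Rpl5 at -0.06 ± 0.06 and Rpl35a at 0.08 ± 0.06. Rpl34 (-3.20 ± 0.12, adjusted p = 2.233e-07) and Rpl11 (-0.69 ± 0.12, adjusted p = 0.0022) had the lowest called changes. Rpl11, the partner of Rpl5 in the 5S particle, was at 40.7 to 59.0 CPM in Con and 27.9 to 31.0 in BCC, and with copies at 815 to 883 and 738 to 802, where it was not called (-0.15 ± 0.06, adjusted p = 0.1042). The Rpl11 row held 5.9% of the counts of Rpl11 and its copies. It also varied within Gnas-eKO Con, at 46.7, 33.0 and 63.7 CPM. Rpl29 had a lower estimate still (-3.60 ± 1.42) but was not called (adjusted p = 0.1212). Of its 3 Con libraries, 2 were close to the BCC range of 5.31 to 6.55 CPM, at 6.98 and 5.51.

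Rplp0 and Rplp1, of the ribosomal stalk, fell in SmoM2 BCC, with and without copies. Rplp0, the base of the stalk that recruits translation factors, was at 2258, 2539 and 2547 CPM in Con and 2047, 1992, 1858 and 2029 in BCC. Its log2 change was -0.29 ± 0.07 (adjusted p = 0.01328), and -0.33 ± 0.06 with its copies (adjusted p = 0.002493). Rplp1, which binds to Rplp0 as a dimer with Rplp2, was at 1096, 1098 and 1074 CPM in Con and 920, 850, 817 and 863 in BCC, a change of -0.32 ± 0.06 (adjusted p = 0.004415). For neither gene did the groups overlap. Under scaling by library totals alone neither was called (Rplp0 -0.16, adjusted p = 0.1073; Rplp1 -0.19, adjusted p = 0.05706), nor in the joint fit of all libraries (adjusted p = 0.1325 and 0.1024). Rplp0 was not called without Con replicate 2 either (adjusted p = 0.06544), nor with same-numbered libraries as a block (adjusted p = 0.06488). Rplp2, which has no copy, was at 202 to 215 CPM in Con and 181 to 204 in BCC, with an estimate of -0.12 ± 0.07 that was not called (adjusted p = 0.2209).

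Rps9 and Rps21, both of the small subunit, fell by 0.17 and 0.21 on the log2 scale (adjusted p = 0.04869 and 0.03628). Rps9 was at 837 to 867 CPM in Con and 743 to 775 in BCC, and with its single copy Gm5905 at 1163 to 1191 and 902 to 943. The summed change was -0.35 ± 0.06 (adjusted p = 0.001267). Rpl3 fell by 0.35 ± 0.09 on the log2 scale and was not called after summing (-0.15 ± 0.06, adjusted p = 0.06452). Under scaling by library totals alone, the rows of Rps9, Rps21 and Rpl3 were not called, and only Rpl34 and Rpl11 were called lower. After summing, 12 members were called in SmoM2, all lower (background 30.6% called, 14.1% lower), and 6 of them were also called as single rows, among them Rpl34, Rplp0, Rplp1, Rps21 and Rps9. The lowest of the 12 was Rpl14, at 858 to 940 CPM in Con and 662 to 706 in BCC (-0.40 ± 0.06, adjusted p = 0.001093), whose own row gave 189 to 215 and 203 to 214 CPM and was not called. Rps29, Rpl37a, Rpl23a, Rpl10 and Rps18 made up the rest, at -0.17 to -0.23. The member rows of these genes held 37.5%, 30.7%, 2.9%, 3.3% and 11.1% of the counts of their sums, in that order. In all 77 sums the change stayed within 0.5 on the log2 scale. Leaving out 1 library at a time, 3 to 7 members were called lower and 2 or 3 higher. The fewest lower calls, 3, came without Con replicate 2, and 5 came without Con replicate 3 or BCC replicate 3. Over all genes, lower calls went from 2214 of 16370 to 1554 of 16810, 1830 of 16783 and 1897 of 16162 in those fits. The call of Rpl35a was lost in 6 of the 7 such fits and that of Rps9 in 7. Of the sums, 4 to 8 were called lower, with 4 without Con replicate 2 or BCC replicate 2 and 5 without BCC replicate 3. In that order, those fits called 1565 of 16300, 1714 of 15678 and 1907 of 15685 genes lower, against 2232 of 15881 with all libraries.

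**Figure D4:**
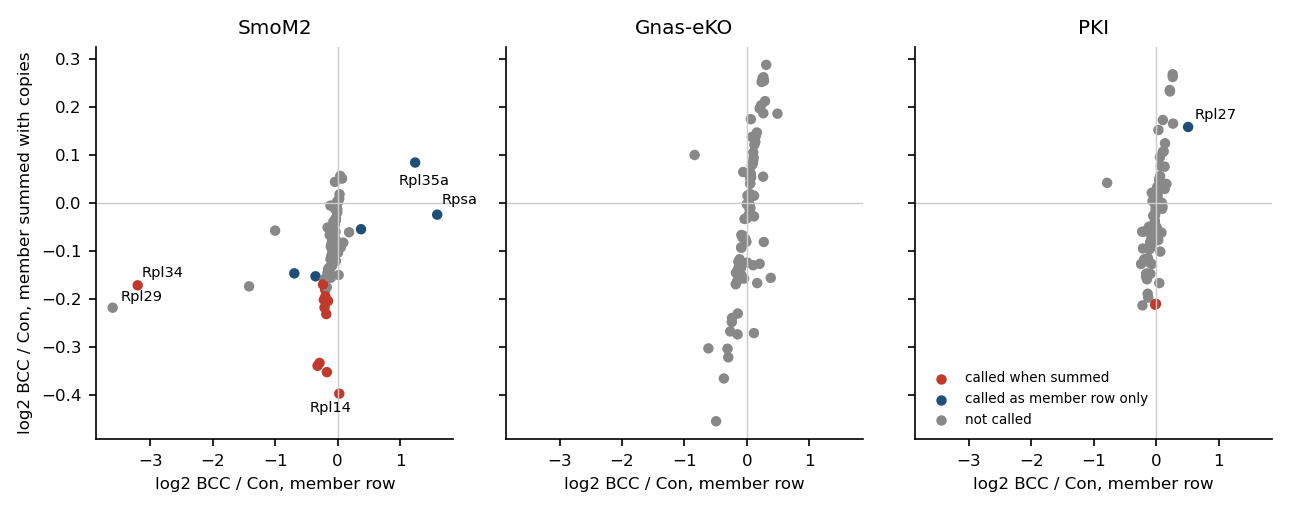
log2 change from Con to BCC of the 77 members in SmoM2, Gnas-eKO and PKI (3 Con and 4 BCC libraries each), for the member row (horizontal axis) and for the member summed with its copies (vertical axis, on a finer scale). In SmoM2 the rows reach from -3.60 to 1.59 but the sums only from -0.40 to 0.08, and red points, called after summing, lie below 0 in SmoM2 and PKI.

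In Gnas-eKO, no member was called in either direction by edgeR (background 1.63% of 16409 genes), and none had an unadjusted p under 0.05 (background 19.6%); DESeq2 also called none (background 9.35%), with 4 at an unadjusted p under 0.05 (background 21.3%). The estimates ran from -0.84 to 0.49 with a median of 0.04, against 0.02 over all genes tested, and no sum was called (background 1.97%). With Con and BCC libraries of the same number paired, again no member was called (135 of 16409 genes, 0.823%) and none had an unadjusted p under 0.05 (background 14.8%), with a median of 0.02. Of the 4 BCC libraries, replicate 3 differed most from the rest, by a chi-square per degree of freedom of 111 to 179 over all genes, against 24.6 to 82.6 among the other 3. It was above the median of the other 3 BCC libraries in 74 of the 77 members after summing, by a median of 0.79 on the log2 scale, while 12741 genes with a mean CPM of at least 3 had a median of -0.05. The difference was not uniform: Rpl41, the shortest ribosomal protein, was 1.57 higher in replicate 3, Rps21 1.44, Rps24 1.41 and Rps12 1.40 higher, whereas Rpl4 differed by -0.00, Rpl8 by 0.30 and Rps4x by 0.28. Mitochondrial ribosomal proteins were higher there too, by a median of 0.52 over 77 genes, and ribosome biogenesis factors by 0.01 over 38. Among protein-coding genes the median difference went with transcript length, from 0.26 in the shortest to -0.33 in the longest of 4 groups of like size; its part in the members' levels was not tested.

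Without replicate 3, 74 of the 77 estimates in Gnas-eKO were below 0, with a median of -0.25, and 46 had an unadjusted p under 0.05 (background 24.2% of 16050 genes). None was called, and the lowest adjusted p was 0.06085. Of the sums, 64 had an unadjusted p under 0.05 without that library (background 24.4%). When all 21 libraries were fitted jointly, replicate 3 included, 3 rows were called lower in Gnas-eKO (background 6.05%), among them Rplp0 (-0.50 ± 0.14) and Rpl4 (-0.25 ± 0.08). As rows, 65 of the 77 members were above all 3 Con libraries in replicate 3 (39.7% of 12741 genes were) and 4 were below them (42.7% of genes). Rplp0 was one of those 4: it was at 2502, 2668 and 2477 CPM in Con and at 1338, 2038, 2299 and 1517 in BCC, so all 4 BCC libraries were below Con. Its log2 change was -0.49 ± 0.22 (adjusted p = 0.2654). Rplp1 was at 1140 to 1230 CPM in Con and at 731, 946, 1281 and 731 in BCC, where replicate 3 was above Con. Rps6, the S6 kinase substrate, was at 176 to 183 CPM in Con and at 136, 158, 270 and 168 in BCC.

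In PKI, 1 of the 77 members was called (1.3%; background 34.5% of 16397 genes, 18.7% higher and 15.8% lower). Rpl27, a large subunit protein, was at 15.9, 15.1 and 16.2 CPM in Con and at 25.7, 21.7, 20.7 and 20.7 in BCC, a rise of 0.51 ± 0.11 (adjusted p = 0.006616) with no overlap between the groups. Its row held 4.9% of the counts of Rpl27 and its copies, and the sum, at 344 to 355 CPM in Con and 356 to 425 in BCC, was not called. The median over the members was -0.02, and 75 of 77 lay within 0.5 on the log2 scale. After summing, Rpl31 and Rpl17 were called lower and none higher (background 35.6% called, 16.5% lower and 19.2% higher), each at -0.21 ± 0.07 (adjusted p = 0.0448 and 0.04583). Rpl31 with its copies was at 565 to 609 CPM in Con and 481 to 526 in BCC, and Rpl17 with its copies at 1152 to 1230 and 983 to 1072. The member rows held 8.7% of the counts of the Rpl31 sum and 2.1% of those of the Rpl17 sum. Neither row was called, and that of Rpl17 was at 20.8 to 28.2 CPM in Con and 18.8 to 26.5 in BCC. Leaving out 1 library at a time, 0 to 6 sums were called lower, 6 of them without BCC replicate 2. That fit of sums called 2164 of 15662 genes lower, against 2619 of 15916 with all libraries. The rise of the Rpl27 row kept its call in all 7 fits that leave out 1 library.

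Whether BCC and Con differ by unequal amounts in 2 models was tested as an interaction on the 14 libraries of both; those tests share their libraries with the comparisons above. Between Gnas-eKO and SmoM2 the effect differed for 1 member (background 0.175%), Rpl34, whose change was 3.48 ± 0.43 higher in Gnas-eKO (adjusted p = 0.003416). In the joint fit of all libraries Rpl34 was not called (adjusted p = 0.1124), and Rpsa was, with a lower change in Gnas-eKO. Without Gnas-eKO BCC replicate 3, Rpl34 was still the member called (2.99 ± 0.15, adjusted p = 9.024e-07, background 0.205%). The members' median difference went from 0.10 to -0.16 and those at an unadjusted p under 0.05 from 3 (background 8.74%) to 17 (background 10.7%). Between PKI and SmoM2 it differed for 6 members (7.79%; background 24.9%). The change of Rpsa was 1.66 ± 0.09 lower in PKI than in SmoM2, that is -1.66 on the log2 scale (adjusted p = 7.178e-08), and that of Rpl5 was -0.32 ± 0.11 (adjusted p = 0.04067). Rpl11 (0.68 ± 0.17), Rpl27 (0.51 ± 0.16), Rplp2 (0.38 ± 0.12) and Rpl41 (0.36 ± 0.12) had higher changes in PKI. Under scaling by library totals alone, 1 member had a higher change in PKI and 4 a lower one. Over all genes 1539 were then called higher and 2706 lower, in place of 2181 and 2119. Over the 14 fits that leave out 1 library, the calls of Rpl5, Rplp2 and Rpl27 were lost in 10, 9 and 6, and those of Rpsa and Rpl11 in none. Rplp2 was at 187 to 205 CPM in the PKI controls and 201 to 260 in the PKI tumours, and within PKI alone was not called (0.26 ± 0.10, adjusted p = 0.06923). After summing, 7 members differed between PKI and SmoM2 (background 25.8%), 2 of which, Rpl41 and Rplp2, were also called as single rows; no sum differed between Gnas-eKO and SmoM2. Between PKI and Gnas-eKO no member differed (background 9.06%), with 1 at an unadjusted p under 0.05 (background 25.3%), and no sum (background 9.49%). Without Gnas-eKO BCC replicate 3, 9 members had a higher change in PKI (background 7.37%), from 0.42 for Rpl8 to 0.89 for Rpl27.

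Several members with known roles outside bulk translation were not called as rows in any model. Rps19, Rps20 and Rps7, whose reduced dose in mice gives dark skin or skeletal changes, are among them: Rps19 was at 315 to 332 CPM in SmoM2 Con and 311 to 342 in SmoM2 BCC, and at 280 to 309 and 257 to 283 in PKI. Rps20 was at 336 to 378 and 308 to 334 CPM in SmoM2 and at 308 to 333 and 295 to 329 in PKI, and Rps7 at 71.9 to 79.3 and 66.7 to 70.8 in SmoM2. Rpl24 and Rpl38, whose mouse mutants have a belly spot and kinked tail or a short tail, were at 27.0 to 28.6 and 26.4 to 28.3 CPM in SmoM2 Con and at 24.2 to 30.3 and 25.8 to 32.9 in SmoM2 BCC. Rpl22, an RNA-binding protein lost in some tumours, was at 346 to 350 CPM in SmoM2 controls and 330 to 349 in SmoM2 tumours, and at 350 to 389 and 327 to 382 in those of PKI. Of the X-linked members, Rpl10, Rpl36a, Rpl39 and Rps4x, no row was called in any model, and the sum of Rpl10 with its copies was lower in SmoM2 BCC (-0.18 ± 0.06, adjusted p = 0.04782). The Rpl10 row held 3.3% of the counts of that sum. Rps4x was at 601 to 624 CPM in SmoM2 Con and 574 to 594 in SmoM2 BCC. For Rps6 the values in SmoM2 were 155 to 175 in Con and 155 to 160 in BCC, and in PKI 150 to 170 and 164 to 200.

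The related genes that the rule leaves out were described from lists, to be read beside the share of all genes called: 16.2% higher and 13.5% lower in SmoM2, 18.7% and 15.8% in PKI, and 1.63% in either direction in Gnas-eKO. The counts in Gnas-eKO include BCC replicate 3; without it none of these lists had another count. Of 20 translation factor and other TOP genes, 1 rose (Hnrnpa1, 0.55 ± 0.09) and 6 fell in SmoM2, among them Tpt1 (-0.34 ± 0.06) and the elongation factors Eef2 (-0.19 ± 0.06) and Eef1d (-0.30 ± 0.07), none was called in Gnas-eKO, and 4 rose and 2 fell in PKI, with Npm1 at 0.47 ± 0.09 and Tpt1 at -0.29 ± 0.09. The list's median was -0.15 in SmoM2 and 0.07 in PKI. The 38 ribosome biogenesis factors had 13 lower and none higher in SmoM2 (median -0.16), with Nhp2 at -0.63 ± 0.10 and Rrp12 at -0.62 ± 0.11. In PKI 25 were higher and none lower (median 0.36), with the RNA methyltransferase Fbl at 0.61 ± 0.11, Bysl at 0.68 ± 0.11 and nucleolin (Ncl) at 0.36 ± 0.08. Ncl was at 832 to 909 CPM in the PKI controls and 1030 to 1168 in the PKI tumours. Mitochondrial ribosomal proteins had 2 higher and 9 lower of 78 in SmoM2 and 23 higher of 78 in PKI, Mrpl12 among them (0.61 ± 0.13). So in PKI BCC, where 1 of 77 cytosolic ribosomal protein rows was called, the counts called higher were 25 of 38 for biogenesis factors and 23 of 78 for mitochondrial ribosomal proteins, beside 18.7% of all genes; the difference between the lists was not tested.

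Of 22 mTORC1 and Myc regulators, Mycn rose in all 3 models: from 2.76 to 7.95 CPM in SmoM2 Con to 103 to 143 in BCC (4.54 ± 0.35), from 4.21 to 6.39 to 33.1 to 142 in Gnas-eKO (4.14 ± 0.56) and from 5.47 to 6.94 to 19.8 to 43.9 in PKI (2.48 ± 0.27). The call of Mycn in Gnas-eKO was lost in 4 of 7 fits that leave out 1 library (each Con library and BCC replicate 1, adjusted p up to 0.1478) and in the paired fit (adjusted p = 0.06048), and in the other models in none. It was the only one of the list to rise in SmoM2, where 5 fell: Myc (-0.32 ± 0.09), Mycl (-0.73), Mtor (-0.28), Rps6kb2 (-0.47) and Rragc (-0.32). In PKI 4 rose, with Mxd1 at 0.59, Eif4e at 0.31 and Eif4ebp1, the translation inhibitor that mTORC1 phosphorylates, at 0.52 ± 0.14, and Mxd4 (-0.55) and Mycl (-0.41) fell. In Gnas-eKO no other gene of the list was called. In SmoM2 and PKI these shares lie near or below those of all genes, apart from the lower calls in SmoM2. Of 12 p53 targets, 4 rose and 1 fell in SmoM2, where Cdkn1a was the one that fell (-0.78 ± 0.11) and Zmat3 rose by 0.48 ± 0.13; 2 rose and 2 fell in PKI, with Bax at 0.56 ± 0.12, Aen at 0.59, Sesn1 at -1.01 ± 0.12 and Kitl at -0.86, and none was called in Gnas-eKO. Of 6 tested paralogues of members, Rps4l (1.24 ± 0.22) and Rpl22l1 (0.37 ± 0.11) rose and Rpl36al (-0.28 ± 0.07) fell in SmoM2, with none called in the other models.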

How the data were processed

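Polyadenylated RNA of tail epidermal cells from 21 mice was sequenced with a stranded mRNA kit, per the labels' protocols. Per the submitters' processing notes, bcl2fastq 2.20, cutadapt 1.18, STAR 2.7.0f, Partek and the mm10 genome were used; the counter, its strand setting and its treatment of reads with several matches are not given in the sources used here. The deposited table holds the authors' estimated counts per gene (33.1% of values not whole), which were rounded. The authors' second table holds a normalized signal, equal to the deposited count times one factor per library plus 0.001, and served only in an alternative.

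BCC was compared with Con within each model by edgeR 4.0.16 (quasi-likelihood test, default filter on low counts, TMM scaling, Benjamini-Hochberg adjustment over all genes, threshold 0.05) in R 4.3.3; limma 3.58.1 and DESeq2 1.42.0 gave alternatives. SE was taken as the log2 change divided by the root of F. CPM is not corrected for length, so levels are not compared between genes; 3 counts equal 0.134 to 0.189 CPM and cover counting error only. Copies were found with blastn 2.17.0 (at least 90% identity over 80% of the coding sequence) in GENCODE M21, and counts of a member and its copies were summed before testing; the search was added after seeing the data. Genes were named by role, by the largest called changes, and by splits between batches or prefixes. The members and lists were chosen with earlier results of these data known. Every pair of libraries in a group differed by more than counting noise (chi-square divided by its degrees of freedom at least 8.33). That libraries are separate mice is taken from the headers, and p-values measure only the spread between these libraries. Deviations of same-numbered Con and BCC libraries correlated at 0.126, 0.245 and 0.105 in Gnas-eKO, which meets the threshold of 0.1 for pairing, but not throughout in SmoM2 (-0.086, -0.218, -0.12) or PKI (0.35, -0.084, 0.337); results are from the fit without pairs, with the paired one given beside it for Gnas-eKO. The fit was tested on simulated data. Some results are not reported here.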

Additional observations from a re-analysis of the deposited data

Results flagged for a closer look

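Among 96 groups of 4 libraries, most of them for 30 chosen members, 16 had 1 library outlying by Dixon's ratio. Chance gives about 1 in 20 for independent groups, but the members were partly chosen for splits or large changes and share their libraries, so the number is not to be read against that. Of the 16, 11 were Gnas-eKO BCC replicate 3, far above the other 3 BCC libraries for Rps7 (167.9 CPM), Rpl38 (54.14), Rpl22 (609.2), Rpl10 (50.29), Rpl34 (283.4), Rpl3 (67.04), Rps9 (1373), Rpl35a (66.82), Rpl27 (29.05) and Rps18 (79.4), and far below them for Rpl26 (36.43). In SmoM2 BCC, Rps9 was high in replicate 4 (774.9 CPM), Rpl35a low in replicate 3 (27.82) and Rpl26 high in replicate 2 (124.4). In PKI BCC, Rpl34 was high in replicate 1 (62.74 CPM), and the members and copies together were high in replicate 2, at 6.512% of counts.

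The effect of BCC differed between models by the interaction test for Rpl34 (3.479 on the log2 scale, Gnas-eKO minus SmoM2). Between PKI and SmoM2 it differed for Rpsa (-1.655), Rpl5 (-0.324), Rplp2 (0.38), Rpl27 (0.505), Rpl11 (0.685) and Rpl41 (0.36). Of these 7 effects, those of Rplp2, which has no copy, and Rpl41 were also called in the fit of sums.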

How the results depend on the processing

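Counts of called members moved with several choices. In SmoM2, 8 members were called lower; this became 2 with library totals only, 5 without the filter on low counts, 13 with DESeq2, 2 when all 21 libraries were fitted jointly, and 3 to 7 leaving out 1 library. Over all genes the lower calls moved too, from 2214 of 16370 to 1319 with library totals, 2079 of 23570 without the filter, 2515 with DESeq2 and 1885 of 17695 jointly. Leaving out 1 library, they were 1554 to 2159. The 3 called higher became 0 when summed with rows named as pseudogenes or with all copies, and 2 to 3 leaving out 1 library. In Gnas-eKO none was called in either direction (0 to 0 leaving out 1 library), but the joint fit called 3 lower. The fit within Gnas-eKO without Con replicate 1 or 2 called 0 of all genes, so those fits say nothing about the members; without BCC replicate 2 it called 1910 of 16195 genes. In PKI, 1 was called higher; this became 5 with library totals only, 2 with DESeq2, 0 in both summed fits, 0 in the joint fit and 1 to 3 leaving out 1 library, while the higher calls over all genes went from 3063 of 16397 to 3323 with library totals, 3262 with DESeq2 and 2696 of 17695 jointly. None was called lower there, which became 1 with DESeq2, 2 in both summed fits and 0 to 2 leaving out 1 library. Leaving out 1 library from the sums gave 0 higher and 4 to 8 lower in SmoM2, and 0 to 1 higher and 0 to 6 lower in PKI. Over all genes, those fits called 1565 to 2179 lower in SmoM2 and 1893 to 2549 in PKI. The single difference between Gnas-eKO and SmoM2 became 2 with DESeq2 and 0 in both summed fits; in the joint fit Rpl34 lost its call (adjusted p = 0.1124) and 1 other member, Rpsa, was called, lower. The 6 between PKI and SmoM2 became 10 with DESeq2, 1 in the joint fit and 2 to 8 leaving out 1 library (all genes: 4300 of 17261, 4886 with DESeq2, 2993 of 17695 jointly), and the 0 between PKI and Gnas-eKO became 0 to 9. With library totals only, 5 differed between PKI and SmoM2, 1 higher and 4 lower (all genes: 4245 of 17261). The 7 among Con batches (268 of 16298 genes) became 12 with DESeq2 (794 genes), 2 when summed with pseudogene rows, 0 with all copies and 5 to 7 leaving out 1 library. Rpsa in SmoM2 turned to -0.034 with pseudogene rows and -0.025 with all copies. Leaving out 1 library from the latter, it was at -0.061, -0.041, -0.028, -0.018, -0.012 and -0.009, and was not below 0 in the remaining fit. Rpl5 turned to -0.055 with all copies (-0.094, -0.066, -0.052, -0.047, -0.043 and, in 2 fits, -0.039 leaving out 1 library). The median share of counts became 4.351% with pseudogene rows and 6.285% with all copies. With the replicate number as a block, 4 members were called lower in SmoM2 and 4 higher in PKI. In these models the numbers share only a label. Those fits called 1444 of 16370 genes lower in SmoM2 and 3122 of 16397 higher in PKI. In Gnas-eKO the paired fit called 0 members. Apart from the summed fits, where the construction pools rows, the cause of these changes was not tested.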
